A study of Mus musculus with 8 samples.

Results

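The mitochondrial genome of mouse rib chondrocytes was followed through all 37 genes of the deposited table whose symbol starts with mt-, out of 52325 gene identifiers. They comprise 13 protein-coding genes, 22 tRNA genes and 2 rRNA genes, each listed once. Each of the 8 libraries came from 1 mouse, 4 of them Mir324-null, without the gene of the microRNA miR-324, and 4 wild-type controls (WT). Cells were freed from the rib cage of each animal by collagenase, and libraries were made from total RNA with a low-input kit. Strain, age, sex and whether the deletion is limited to some tissues were not given in the sources used here. Values are TPM (transcript abundances scaled for transcript length and to a fixed total per library), so they keep no record of sequencing depth.

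Mitochondrial DNA is a compact circle read from both strands into long precursor RNAs. Enzymes cut these precursors largely at the tRNAs that punctuate them, which releases mRNAs, rRNAs and tRNAs. The proteins are core subunits of respiratory complexes I, III, IV and V, and the tRNAs and rRNAs serve the organelle's own ribosomes. Cartilage is poorly supplied with blood, and chondrocytes draw much of their energy from glycolysis.

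The chondrocyte label was checked with 8 markers, among them Col2a1 and Acan, whose summed TPM spanned 38246 to 52346 in null libraries and 40843 to 50818 in WT libraries. Skeletal muscle, rich in mitochondria, was represented by 10 markers with a summed level of 56.5 to 80.3 TPM in null libraries and 42.3 to 110 TPM in WT libraries, with Myh4 at 0 in all 8. The 4 adipocyte markers summed to 1.80 to 2.18 TPM in null and 1.23 to 2.23 TPM in WT. Higher were 6 fibroblast and perichondrium markers, at 808 to 1845 TPM in null and 458 to 2809 TPM in WT. The 6 erythroid markers summed to 281 to 1039 TPM in null and 111 to 1082 TPM in WT. The macrophage, neutrophil, endothelial and osteoclast lists each summed to 45.9 TPM or less in every library. Null replicate 3 stood apart: its mean Spearman correlation with the other 7 libraries was 0.864, and pseudogenes held 25.0% of its TPM, while the other 7 libraries lay at 0.895 or more and at 19.1% or less. Where leaving it out turned a printed fold change of a mitochondrial gene round or moved it by over 1.5 times, the value without it is given too. Fold changes of a gene summed with its copies in nuclear chromosomes were not refitted without it.

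No mitochondrial gene of any class passed the test between genotypes. Fold changes were positive for 11 of 13 mRNAs and both rRNAs, and negative for 10 of the 15 tested tRNA genes (median -0.24, but -0.12 without WT replicate 1 and -0.08 without WT replicate 2). Over all tested genes 39.9% were positive and 60.1% negative. Some sparse tRNA genes could pass the filter for testing through 1 genotype alone, so the tRNA count is no support for a direction. The 13 mRNAs together held 3.52, 3.62, 2.94 and 3.70% of all TPM in null replicates 1 to 4, and 2.58, 2.67, 3.38 and 3.44% in WT replicates 1 to 4. Null replicates 1, 2 and 4 lay above every WT library, and null replicate 3 lay within the WT range. The sum averaged 34451 ± 3442 TPM in null and 30173 ± 4543 TPM in WT (SD, n = 4 each), a log2 ratio of 0.19. The ratio was 0.12 without WT replicate 1 and 0.26 without null replicate 3. Without mt-Atp8, the mRNA with the most TPM, the sum was 18100, 18248, 20344 and 19042 TPM in null replicates 1 to 4. It was 13676.5, 14421, 17065 and 18659 TPM in WT replicates 1 to 4, a log2 ratio of 0.25. Null replicate 3 was then the highest library. As with any bulk measurement, fewer cells of a type and less RNA per cell cannot be told apart.

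Genes at 1 TPM or more in at least 4 libraries were tested with limma's moderated test on log2(TPM + 1), and p-values were adjusted over all 13910 genes tested. All 13 protein-coding genes, both rRNA genes and 15 of 22 tRNA genes passed that filter. None of the 30 passed at an adjusted p of 0.05, where 0.0216% of all tested genes did, 0.00719% higher and 0.0144% lower. At an unadjusted p under 0.05, 5 of the 30 differed (4.15% of all tested genes did). These were 3 mRNAs and 1 tRNA gene that were higher (1.78% of all tested genes were) and 1 tRNA gene that was lower (2.37% of all tested genes were). Both tRNA genes, mt-Tq and mt-Tk, could pass the filter on libraries of 1 genotype alone, so they add no support to these counts. Of the 13 mRNAs, 11 had a positive log2 fold change, where 39.9% of all tested genes were positive and 60.1% negative; the median was 0.23, against -0.05 for all tested genes. Without null replicate 3 all 13 mRNAs were positive, as were 55.0% of all tested genes, and with array quality weights all 13 were positive, as were 51.6%. The mRNAs are read together from shared precursors and share libraries, so they are not independent replicates of the difference.

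**Figure D1:**
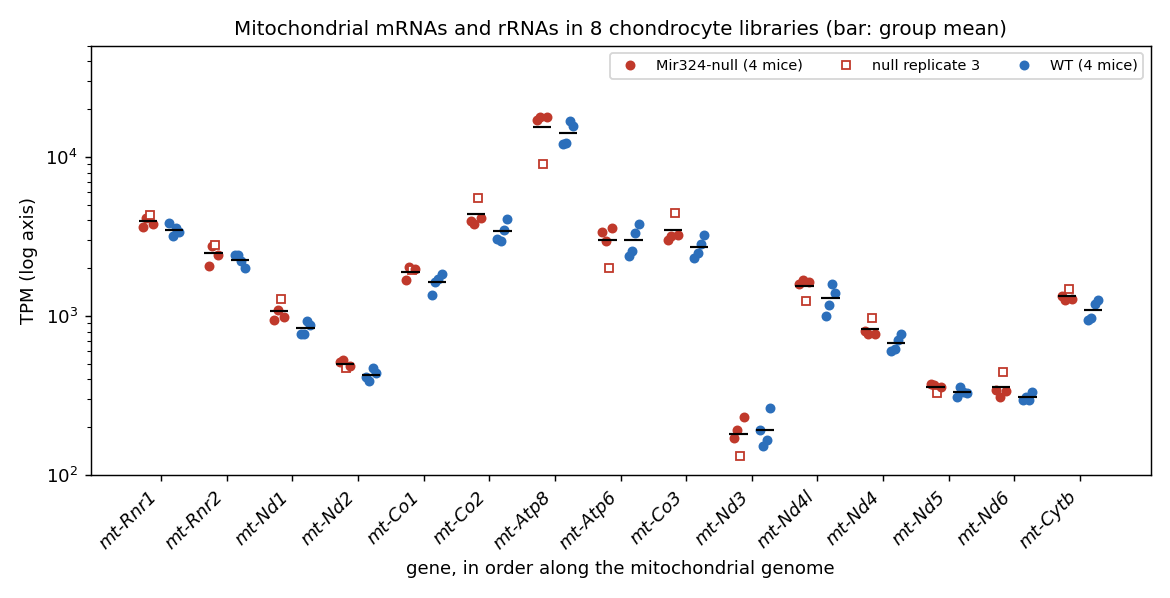
TPM (log axis) of the 13 mitochondrial mRNAs and 2 rRNAs in genome order, 1 point per library, Mir324-null in red left of WT in blue, with group means as bars and null replicate 3 as open squares. Every null point lies above every WT point for mt-Nd1 alone; null replicate 3 is the highest null library for mt-Rnr1, mt-Rnr2, mt-Nd1, mt-Co2, mt-Co3, mt-Nd4, mt-Nd6 and mt-Cytb, and the lowest for mt-Nd2, mt-Atp8, mt-Atp6, mt-Nd3, mt-Nd4l and mt-Nd5.

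Complex I, which takes electrons from NADH, has 7 mitochondrially encoded subunits. mt-Nd1 (ENSMUSG00000064341, chrM:2751-3707 in GRCm38) stood at 945, 1100.0, 1279 and 985 TPM in null replicates 1 to 4, against 771, 773, 933 and 874 TPM in WT replicates 1 to 4. It was the only mRNA whose groups did not overlap; null libraries lay all above WT for 0.978% of tested genes and all below for 1.7% (2.68% in either direction). Its means were 1077 ± 150 TPM in null and 837 ± 79.5 TPM in WT (SD, n = 4 each), and the fold change on the log2 scale was 0.36 (SE 0.13, limma adjusted p = 0.981), or 0.23 with array quality weights.

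mt-Nd4 stood at 808, 776, 973 and 778 TPM in null libraries, against 601, 622, 709 and 777 TPM in WT libraries. WT replicate 4 lay among the null values, and the log2 fold change was 0.30 (95% interval 0.01 to 0.59). mt-Nd2, at 515, 533, 469 and 486 TPM in null and 413, 391, 474 and 439 TPM in WT, had 0.22 (95% interval -0.01 to 0.45); here 3 of 4 null libraries exceeded all WT libraries. The log2 value of mt-Nd5 was 0.10, and that of mt-Nd4l was 0.26, or 0.15 without WT replicate 1.

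mt-Nd6 is the only mRNA on the minus strand of the annotation and overlaps mt-Nd5 by 14 bases. It stood at 344, 310, 443 and 340 TPM in null and 299, 310, 298 and 332 TPM in WT, a log2 fold change of 0.20 (95% interval -0.09 to 0.49), or 0.10 without null replicate 3. Its ratio to mt-Nd5 was 0.921, 0.846, 1.34 and 0.946 in null libraries and 0.958, 0.868, 0.897 and 1.01 in WT libraries. Null replicate 3 alone had mt-Nd6 clearly above mt-Nd5. The use of strand in counting being not given in the sources used here, overlapping genes on opposite strands cannot be told apart.

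mt-Nd3, the mRNA listed with the least TPM, was the one complex I gene with a negative value. It stood at 170, 193, 132 and 233 TPM in null and 193, 153, 166 and 263 TPM in WT, a log2 fold change of -0.09 with overlapping groups; it was 0.06 without null replicate 3. Summed over the 7 genes, complex I mRNA was 4738, 4979, 4877 and 4816 TPM in null libraries and 3596, 3786, 4510 and 4403 TPM in WT libraries. These sums did not overlap, with the null libraries close together; the sums were formed over the chosen members and carry no test.

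Complex III has 1 mitochondrial subunit, cytochrome b. mt-Cytb (chrM:14145-15288) stood at 1332, 1258, 1474 and 1288 TPM in null, against 950, 970, 1186 and 1270.2 TPM in WT. WT replicate 4 lay just above null replicate 2, and the other values kept apart by genotype. The means were 1338 ± 95.7 TPM in null and 1094 ± 159 TPM in WT (SD, n = 4 each), or 0.30 as a log2 fold change (limma adjusted p = 0.981).

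Complex IV, cytochrome c oxidase, has its 3 catalytic core subunits encoded here. mt-Co2 stood at 3958, 3822, 5552 and 4113 TPM in null and 3063, 2962, 3495 and 4106 TPM in WT. mt-Co3 stood at 3012, 3169, 4480 and 3256 TPM in null and 2313, 2485, 2844 and 3234 TPM in WT. In both genes null replicate 3 was highest and WT replicate 4 lay within the null range. Both had a log2 fold change of 0.35, with 95% intervals of -0.01 to 0.71 for mt-Co2 and -0.02 to 0.72 for mt-Co3. Without null replicate 3 they were 0.23 for mt-Co2 and 0.22 for mt-Co3. mt-Co1 had 0.23, or 0.14 without WT replicate 1.

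Complex V, the ATP synthase, had low listed values in 1 library. mt-Atp8, the mRNA listed with the most TPM, stood at 17137, 17957, 9055 and 17923 TPM in null and 12169, 12241, 16768 and 15694 TPM in WT. mt-Atp6, which overlaps it by 43 bases on the same strand, stood at 3375, 2983, 2020.4 and 3599 TPM in null and 2403, 2575, 3324 and 3801 TPM in WT. Null replicate 3 was the lowest library for both as listed, although it was the highest for mt-Co2 and mt-Co3 on either side of them. With its nuclear copies added, as described below, mt-Atp6 was instead highest in null replicate 3, at 5302 TPM. The search for copies found none for mt-Atp8. The log2 fold changes were 0.09 for mt-Atp8 (95% interval -0.47 to 0.64) and -0.02 for mt-Atp6 (95% interval -0.53 to 0.48). Without null replicate 3 they were 0.33 for mt-Atp8 and 0.15 for mt-Atp6; mt-Atp8 had -0.000806 without null replicate 2, and mt-Atp6 was also positive, at 0.03, under both rescalings. mt-Atp8, mt-Nd4l and mt-Nd3 are 204, 297 and 348 bases long, and length scaling of such short transcripts is uncertain, so their place above or below longer genes holds for the listed TPM only.

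**Figure D2:**
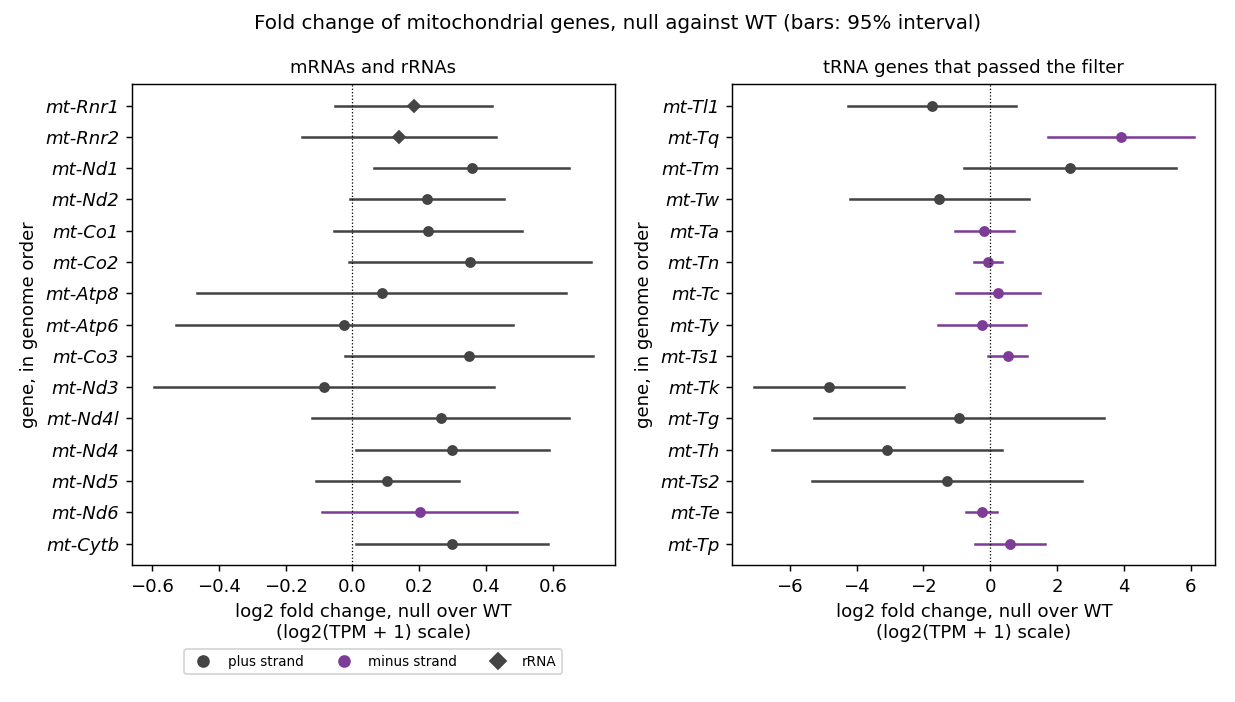
Log2 fold change, null over WT, on the log2(TPM + 1) scale with its 95% interval, for the 15 mRNAs and rRNAs (left, diamonds for rRNA) and the 15 tested tRNA genes (right, wider axis), in genome order from the top; purple marks the minus strand. The mRNA values run from -0.09 to 0.36, while the tRNA values run from -4.82 for mt-Tk to 3.90 for mt-Tq, with intervals several log2 units wide for the sparse genes.

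The 2 rRNAs form the cores of the small and large mitochondrial ribosomal subunits. mt-Rnr1, the 12S rRNA, stood at 3642, 4133, 4306 and 3812 TPM in null and 3857, 3179, 3560.1 and 3402 TPM in WT. Its means were 3973 ± 301 TPM in null and 3499.7 ± 285 TPM in WT (SD, n = 4 each), or 0.18 as a log2 fold change (limma adjusted p = 0.981). mt-Rnr2, the 16S rRNA, stood at 2079, 2743, 2794 and 2421 TPM in null and 2409, 2435, 2232 and 1999 TPM in WT, a log2 fold change of 0.14. mt-Rnr2 had 0.08 without null replicate 3 or without WT replicate 4, and 0.23 without null replicate 1; with array quality weights mt-Rnr1 had 0.10 and mt-Rnr2 0.02. The groups overlapped for both. The ratio of mt-Rnr1 to mt-Rnr2 was 1.59 ± 0.11 in null and 1.55 ± 0.17 in WT (SD, n = 4 each), and the ratio of rRNA to mRNA sums was 0.191 ± 0.036 in null and 0.195 ± 0.039 in WT (SD, n = 4 each).

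Part of the signal of some mRNAs can be held by nuclear copies. Segments of mitochondrial DNA inserted into nuclear chromosomes are annotated as pseudogenes, and reads from identical stretches can be assigned to either place. A search of GENCODE M21 transcripts (blastn, at least 90% identity over at least 100 bases) found 17 such genes outside the mitochondrial genome, of which 16 are in the table. In all, 7 of them lie in a row on the minus strand of chromosome 1, from 24611535 to 24616197 (GRCm38). Gm10925 matches mt-Atp6 over 678 bases and Gm28439 matches mt-Nd4 over 876 bases, both at 100% identity. Gm29216 matches the last 483 bases of mt-Co1, and Gm28438 matches 345 bases of mt-Nd3, each with 1 mismatch. Within the matching part, a read that does not span the mismatch cannot be placed. The stretches around these mismatches are therefore shown (GENCODE M21, 5′ to 3′, the differing base in capitals).
mt-Co1: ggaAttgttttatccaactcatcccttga
Gm29216: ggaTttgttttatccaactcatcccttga
mt-Nd3: atTaacctgtacactgttatcttcattaa
Gm28438: atCaacctgtacactgttatcttcattaa
Counted from the first base of the mitochondrial gene, the substitutions are A1066T in mt-Co1 and T3C in mt-Nd3.

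The split between gene and copy was similar in 7 libraries and different in null replicate 3. Copies held 16.6 to 26.4% of the mt-Atp6 signal in null replicates 1, 2 and 4 and 13.0 to 21.1% in WT, but 61.9% in null replicate 3. There Gm10925 stood at 3281 TPM, against 881, 1071 and 719 TPM in null replicates 1, 2 and 4 and 643, 591, 496 and 577 TPM in WT replicates 1 to 4. All null libraries thus lay above WT for Gm10925, as they did for 0.978% of tested genes. Its log2 fold change was 1.09 (limma adjusted p = 0.981), or 0.61 without null replicate 3. Gm28439 went the other way, at 0.000595 TPM in null replicate 3, while it stood at 443, 495 and 468 TPM in null replicates 1, 2 and 4 and 325, 388, 437 and 359 TPM in WT. For mt-Co1 the copies held 59.1 to 72.2% of the signal in null and 58.2 to 61.6% in WT, and for mt-Nd3 69.7 to 85.8% in null and 66.6 to 79.6% in WT. More TPM was therefore listed for these 2 genes under nuclear pseudogenes than under the mitochondrial symbols. TPM is per length, and Gm29216, at 492 bases, is shorter than mt-Co1, at 1545 bases, so these shares are not shares of reads.

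Adding each copy to the gene it matches best, a step chosen after seeing the data, altered the genes that had stood out. mt-Atp6 with its copies stood at 4257, 4055, 5302 and 4318 TPM in null and 3047, 3166, 3819 and 4379 TPM in WT, a log2 fold change of 0.32 where the gene alone had -0.02. mt-Nd3 with Gm28438 had 0.23 in place of -0.09. mt-Nd4 with Gm28439 had 0.17 in place of 0.30. mt-Co1 with its copies stood at 4836, 4981, 6974 and 5045 TPM in null and 3498, 3935, 4441 and 4804 TPM in WT, with the 4 null libraries above all WT libraries and a log2 fold change of 0.38 (95% interval 0.03 to 0.74, limma adjusted p = 0.981). Null libraries lay all above WT for 0.978% of tested genes. Gm29216 alone had 0.46 and mt-Co1 alone 0.23. Without null replicate 3 these were 0.28 for Gm29216 and 0.22 for mt-Co1. Since the copy is shorter than the gene and TPM is per length, adding them does not give a sum of reads. All 13 mRNAs were then positive, with a median of 0.26, and none passed the threshold. The copies themselves summed to 5144, 5145, 9170 and 4804 TPM in null and 3576, 3736, 4314 and 4423 TPM in WT, a log2 ratio of 0.60 that fell to 0.33 without null replicate 3.

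**Figure D3:**
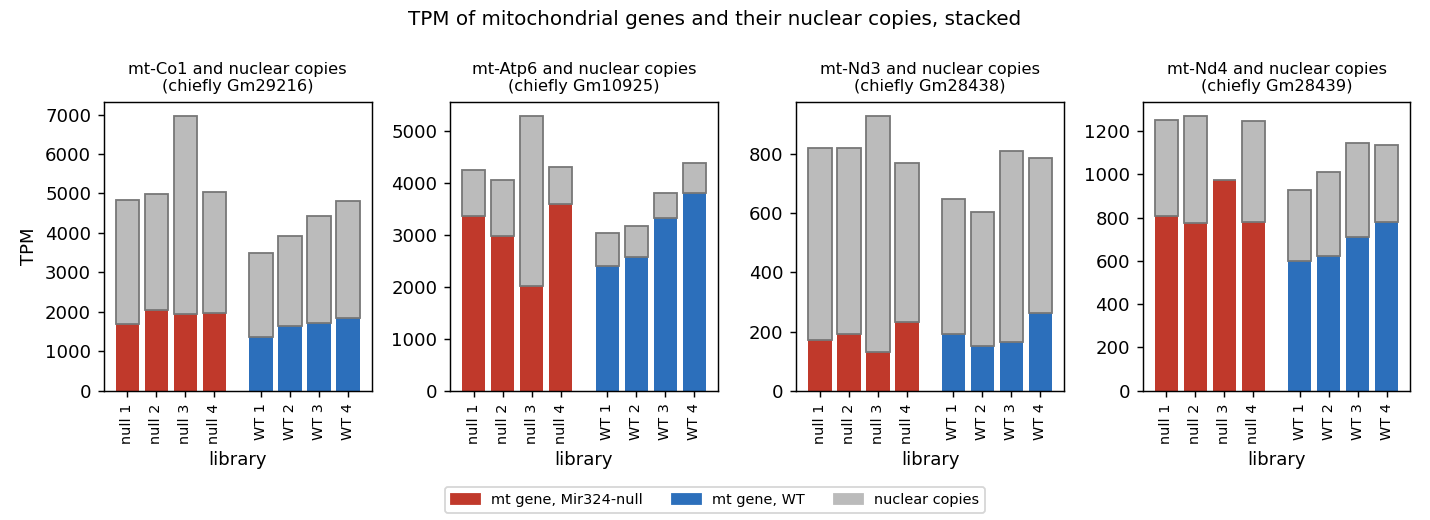
TPM of mt-Co1, mt-Atp6, mt-Nd3 and mt-Nd4 (red in Mir324-null, blue in WT) with their nuclear copies stacked in grey, 1 bar per library and linear axes from 0. In null replicate 3 the grey part makes up 61.9% of the mt-Atp6 bar and is absent from the mt-Nd4 bar; in the other 7 libraries it takes 13.0 to 26.4% and 31.6 to 38.9%.

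The tRNA genes fell into a few steps rather than a continuous scale. In every library each tRNA value was a whole multiple (within 0.01) of that library's smallest one, which was 14.2, 21.4, 16.5 and 19.4 TPM in null replicates 1 to 4 and 14.8, 17.0, 20.7 and 20.2 TPM in WT replicates 1 to 4. The step was the same for genes of 59 to 75 bases, and mt-Nd3 followed it too. The same step gave whole multiples for 84.2 to 94.3% of the other table entries of that length, but for no more than 2.27% of entries of 500 bases or longer. One step may be 1 read, which the sources used here do not state, so TPM of a tRNA gene and of a longer gene are not on 1 scale of abundance. Below, a multiple is a TPM divided by its library's step.

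The tRNA with the highest value was mt-Ts1, which decodes the UCN codons of serine. It stood at 1324, 853, 2235 and 1084 multiples in null (18800, 18280, 36859 and 21070 TPM) and at 833, 846, 794 and 1055 multiples in WT (12368, 14371, 16426 and 21343 TPM). In TPM null replicate 3 was far above the rest, and WT replicate 4 lay within the null range. The log2 fold change was 0.52 (SE 0.26, limma adjusted p = 0.981) and 0.29 without null replicate 3. mt-Ts1 alone held 91.2 to 96.3% of the summed tRNA TPM in null and 86.9 to 93.4% in WT.

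mt-Ts1 lies on the minus strand at chrM:6870-6938 (GRCm38), where its end overlaps the end of mt-Co1, on the plus strand, by 3 bases. Both are shown because they face each other (GENCODE M21, 5′ to 3′; capitals mark the anticodon in mt-Ts1 and, in the last 27 bases of mt-Co1, at chrM:6846-6872, the shared 3 bases, which read as a stop codon).
mt-Ts1: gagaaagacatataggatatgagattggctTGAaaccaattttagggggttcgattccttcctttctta
mt-Co1 end: gaaccaacctatgtaaaagtaaaaTAA
The mature human homologue of the mt-Co1 mRNA is known to run on past its stop codon into sequence complementary to this tRNA. Without knowledge of strand, reads from that extension and reads from the tRNA cannot be told apart. As a comparison between libraries only, and no measure of how much of either RNA there was, the quotient of listed mt-Ts1 over mt-Co1 TPM was 11.2, 8.97, 19.0 and 10.7 in null and 9.15, 8.74, 9.62 and 11.6 in WT.

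The order of the tRNAs was led by genes annotated on the minus strand. The 6 with the largest totals over the 8 libraries were all on the minus strand, which holds 8 of the 22 tRNA genes. The use of strand in counting was not given, so reads from the opposite strand cannot be told apart in these values. The order therefore holds for the listed values only. After mt-Ts1 came mt-Te for glutamate (147 multiples over the null libraries and 171 over WT), mt-Tn for asparagine (76 and 75), mt-Tc for cysteine (64 and 51), mt-Ty for tyrosine (23 and 22) and mt-Ta for alanine (9 in null and 10 in WT). The other minus-strand genes were low, mt-Tp for proline with 10 over the null libraries and 6 over WT, and mt-Tq with 8 over null and 1 over WT. The highest of the 14 on the plus strand, mt-Tw for tryptophan, had 6 over the null libraries and 11 over WT. Both genes listed at 0 in all libraries, mt-Tf for phenylalanine and mt-Tr for arginine, are on the plus strand.

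mt-Te stood at 738, 621, 445 and 758 TPM in null and 728, 951, 703 and 647 TPM in WT, a log2 fold change of -0.26 (95% interval -0.71 to 0.20). It was -0.09 without null replicate 3, -0.14 without WT replicate 2 and -0.05 with array quality weights. mt-Tn stood at 426, 364, 264 and 253 TPM in null and 356, 323, 352 and 303 TPM in WT, a log2 fold change of -0.06 (95% interval -0.47 to 0.35), or 0.03 without null replicate 3 and 0.05 without null replicate 4. The groups overlapped for both. Without mt-Ts1 the minus-strand tRNAs came to 120, 70, 81 and 66 multiples in null and 105, 104, 63 and 64 in WT, ranges that also overlapped.

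The smallest p-values among the members belonged to tRNAs at the bottom of the scale. mt-Tk, the lysine tRNA at chrM:7700-7764 on the plus strand between mt-Co2 and mt-Atp8, stood at 0, 1, 0 and 0 multiples in null and 4, 4, 4 and 2 in WT. In TPM these were 0, 21.4, 0 and 0 in null and 59.4, 68.0, 82.8 and 40.5 in WT, with no overlap between groups. It did not pass over all genes (limma adjusted p = 0.981, unadjusted p = 0.00101), and it passed without null replicate 2 (adjusted p = 0.000387), the only null library with a value above 0. mt-Tq, the glutamine tRNA at chrM:3772-3842 on the minus strand, had the opposite pattern, with 4, 1, 1 and 2 multiples in null and 0, 1, 0 and 0 in WT. It too did not pass (limma adjusted p = 0.981, unadjusted p = 0.00317) except without WT replicate 2, the only WT library above 0 (adjusted p = 0.0107).

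These 2 tRNAs are printed as the members with the smallest p-values (GENCODE M21, 5′ to 3′, anticodon in capitals).
mt-Tk: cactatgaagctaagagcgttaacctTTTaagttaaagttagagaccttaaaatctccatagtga
mt-Tq: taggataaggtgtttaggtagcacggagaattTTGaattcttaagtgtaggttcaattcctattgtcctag
Each anticodon was located as the middle of a 7-base loop closed by 5 base pairs. The fitted log2 fold changes, -4.82 for mt-Tk and 3.90 for mt-Tq, moved to -7.31 and 6.37 with a pseudocount of 0.1, so they are no measure of size. Since 4 libraries above 1 TPM are enough to pass the filter, mt-Tk could pass it on WT libraries alone and mt-Tq on null libraries alone, and no count over the tested tRNAs is offered as support.

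The other plus-strand tRNAs were as sparse. mt-Th for histidine stood at 1, 0, 0 and 0 multiples in null and 2, 7, 1 and 0 in WT (log2 fold change -3.09, 95% interval -6.52 to 0.34, or -4.74 with a pseudocount of 0.1). mt-Tl1, for the UUR codons of leucine, stood at 1, 0, 3 and 1 in null and 2, 2, 4 and 1 in WT. mt-Tm for methionine stood at 3, 0, 1 and 1 in null and 0, 0, 0 and 1 in WT. All 14 plus-strand genes together came to 8, 6, 5 and 8 multiples in null and 19, 24, 11 and 11 in WT, or 114, 129, 82.5 and 155 TPM in null and 282, 408, 228 and 223 TPM in WT. These totals did not overlap, but without mt-Tk they did, at 8, 5, 5 and 8 multiples in null and 15, 20, 7 and 9 in WT. This grouping by strand was chosen after the values were seen and carries no test.

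**Figure D4:**
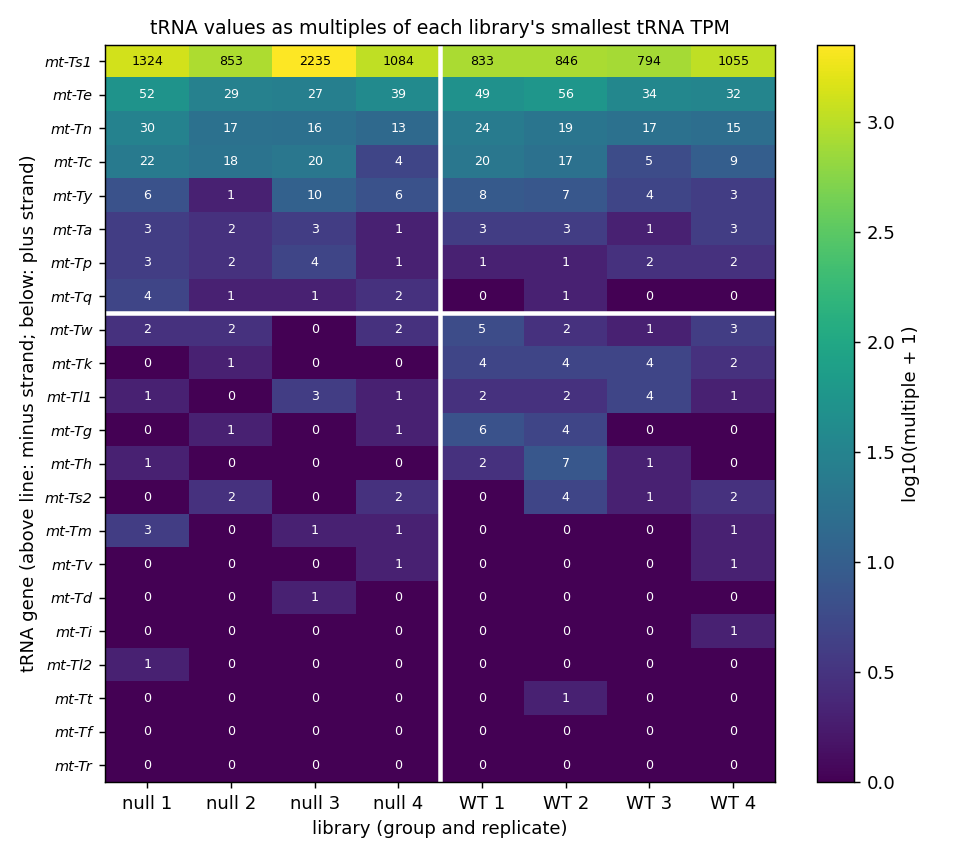
Each cell gives a tRNA value as a multiple of its library's smallest tRNA TPM, with colour on a log10(multiple + 1) scale, 4 null libraries left of 4 WT libraries. Rows above the white line are minus-strand genes, from mt-Ts1 with 794 to 2235 down to mt-Tq; rows below are plus-strand genes, none above 7.

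The nuclear genes that express the mitochondrial genome were summarised from 7 textbook lists. Of 164 genes found, 157 were tested and none passed the adjusted threshold of 0.05 in limma; 2 were higher and 6 lower at an unadjusted p under 0.05, against 1.78% and 2.37% of all tested genes. Fold changes were positive for 88 and negative for 69, with a median of 0.02, where 39.9% of all tested genes were positive. For mitochondrial DNA transcription and maintenance, 9 of 15 tested genes were positive (median 0.04), with Polg, the catalytic subunit of the mitochondrial DNA polymerase, at 0.24 and its accessory subunit Polg2 at 0.29. Polg had 0.15 without null replicate 4 and 0.14 without WT replicate 4; Polg2 had 0.18 without null replicate 3, 0.45 without WT replicate 2 and 0.15 with array quality weights. For RNA processing and decay 11 of 20 were positive (median 0.06). Fastkd2, which binds the 16S rRNA, had 0.41, but 0.16 without null replicate 3, 0.26 without WT replicate 4 and 0.06 with array quality weights. Pnpt1, a mitochondrial exoribonuclease, had -0.23, but -0.13 without null replicate 3, -0.14 without WT replicate 4 and -0.08 with array quality weights.

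Among 16 tested aminoacyl-tRNA synthetases, which charge tRNAs, 8 were positive (median -0.03). Hars2 for histidine had -0.60, Rars2 for arginine had -0.48 and Cars2 for cysteine had 0.40. Hars2 had -0.37 without null replicate 3 and -0.29 with array quality weights. Among 11 tRNA modification genes 4 were positive (median -0.07). Pus1, a pseudouridine synthase, stood at 5.57, 6.97, 6.66 and 5.18 TPM in null, all above WT at 4.71, 4.53, 3.11 and 4.45 TPM. Osgepl1, which modifies the base next to the anticodon, stood at 1.76, 1.58, 1.91 and 1.39 TPM in null, all below WT at 2.07, 2.77, 2.68 and 2.69 TPM. Both had a limma adjusted p of 0.981. Null libraries lay all above WT for 1 and all below WT for 5 of the 157 tested genes of the 7 lists. Over all tested genes the shares were 0.978% above and 1.7% below.

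Of 11 rRNA maturation genes 8 were positive (median 0.04). Nsun4, which methylates the 12S rRNA, had 0.36 (0.17 with array quality weights) and Eral1, its chaperone, had -0.16. Of 78 mitochondrial ribosomal protein genes 44 were positive (median 0.02), with Mrpl2 at -0.44 and Mrpl53 at -0.35. Among the 6 tested biogenesis regulators 4 were positive (median 0.02). Ppargc1a, a coactivator of mitochondrial biogenesis, stood at 1.36, 1.03, 0.495 and 0.900 TPM in null, all below WT at 1.71, 1.85, 3.76 and 2.52 TPM (log2 fold change -0.81, or -1.30 with a pseudocount of 0.1, limma adjusted p = 0.981). Null libraries lay all below WT for 1.7% of all tested genes. Pprc1, a relative of Ppargc1a, had 0.32, or 0.16 without null replicate 2.

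Levels of some other gene lists lay apart or partly apart between genotypes, with no member past the adjusted threshold in limma. The 14 immediate early and dissociation stress genes summed to 8706 to 13194 TPM in null and 13480 to 18379 TPM in WT, without overlap. The 6 endothelial markers summed to 18.2 to 25.2 TPM in null and 7.54 to 18.6 TPM in WT, ranges that overlapped. Of 5 endothelial markers tested, 5 were positive (39.9% of all tested genes were) and 4 were higher at an unadjusted p under 0.05 (1.78% of all tested genes were). The nuclear-retained RNAs Malat1 and Neat1 summed to 652, 619.8, 171 and 578 TPM in null and 754, 551, 635 and 910 TPM in WT; only null replicate 3 lay below all WT libraries. Their part in the mitochondrial values was not tested.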

How the data were processed

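The members and gene lists were chosen with earlier results of these data known. Gene-level values for 8 libraries were deposited as TPM, in a sheet the authors named length-scaled, 1 column per sample with no pooling. The table has 52865 rows; 273 identifiers that occur more than once (813 rows) were kept a single time, after which each column summed to 1000000. The column of null replicate 3 exceeds a TPM total while the repeats are in, and was used on the same scale. Per the submitters' processing notes, which give no versions or roles, kallisto and DESeq2 were used, with GRCh38 as build, although the gene identifiers are those of mouse. Positions and sequences come from GENCODE M21 (GRCm38), perhaps another annotation than the authors', which matched 52220 identifiers.

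Limma 3.58.1 in R 4.3.3 was fitted on genotype alone, with a trend in its prior and Benjamini-Hochberg adjustment; a fold change on the log2(TPM + 1) scale understates low genes. The procedure was tested on simulated data with each gene's own mean and fitted spread. It called 3 of 67 genes changed 1.5-fold, 36 of 67 changed 2-fold and 60 of 66 changed 4-fold, with 5 false calls. Changes of 1.5-fold or less would thus mostly go uncalled. Nuclear copies were sought with blastn 2.17.0. Alternatives were median-of-ratios scaling, rescaling over nuclear protein-coding genes, a pseudocount of 0.1, no filter, a mean TPM of at least 1, array quality weights, the replicate block, leaving out each library, and, added after seeing the data, adding nuclear copies and leaving out mt-Ts1. Genes named were mt-Nd1, mt-Cytb, mt-Nd6, mt-Atp8, the highest and lowest mRNA, the 4 mRNAs and 6 tRNAs with the smallest p, both rRNAs, the 3 highest tRNAs, up to 3 genes of each nuclear list by p, and the 4 highest copies; others were named after their values were seen. Each library came from a separate animal. No pair of libraries had equal TPM at more than 0.769% of tested genes. Depth is unknown, so no counting intervals are given.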

Additional observations from a re-analysis of the deposited data

Results flagged for a closer look

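In a group of 4, a library was singled out when its gap to the nearest other exceeded Dixon's 95% critical share of the group's range. Of 74 groups checked, 13 held such a library. The nominal rate of 1 in 20 holds for independent, normally distributed values. The groups here shared libraries and genes, with mt-Ts1 also part of the tRNA sum. A group with 1 library above 0 and the rest at 0 is always flagged. The 13 are thus no measure of an excess. Null replicate 3 accounted for 9 of them. It was highest for mt-Ts1 at 36859 TPM (other null libraries 18280 to 21070 TPM), mt-Co2 at 5552 TPM, mt-Co3 at 4480 TPM, mt-Nd4 at 973 TPM, the summed tRNA genes at 38277 TPM, Gm29216 at 5033 TPM and Gm10925 at 3281 TPM. It was lowest for mt-Atp8 at 9055 TPM and for Gm28439 at 0.000595 TPM. The other 4 were single steps above libraries listed at 0 TPM: mt-Tk at 21.4 TPM in null replicate 2, mt-Th at 14.2 TPM in null replicate 1, mt-Tq at 17.0 TPM in WT replicate 2 and mt-Tm at 20.2 TPM in WT replicate 4.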

How the results depend on the processing

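No mitochondrial mRNA or rRNA and no gene of the nuclear lists passed under any alternative run. The count of tRNA genes that passed was 0 to 1 when each library was left out (mt-Tk without null replicate 2, mt-Tq without WT replicate 2) and 0 otherwise. The median log2 fold change of the mRNAs was 0.18 to 0.29 with 1 library left out and 0.23 to 0.28 otherwise, with 10 to 13 of 13 positive. The tRNA median, -0.24, was -0.12 without WT replicate 1 and -0.08 without WT replicate 2. The log2 ratio of summed tRNA TPM, 0.50, was 0.23 without null replicate 3 and -0.16 without mt-Ts1. mt-Nd3 turned positive with array quality weights (0.0665) and with nuclear copies added (0.23), and ran from -0.21 to 0.0716 with a library left out. With a library left out mt-Atp8 ran from -0.000806 to 0.33, mt-Tn from -0.20 to 0.0503 and Gm28439 from -2.66 to 0.32. Gtpbp3, a tRNA modification gene at -0.13, had 0.0190 with array weights. Deviations of same-numbered libraries were weakly correlated (-0.0385, 0.114, -0.0474 and 0.108), and the other pairs ran from -0.132 to 0.107. Such weak values cannot settle whether the numbers pair libraries. With the replicate block 0 members passed, as without it, and 0 genes in all against 3. Over all genes limma called 5 with a pseudocount of 0.1 or nuclear rescaling, 0 with no filter or a filter on the mean, and 2 to 7 with a library left out. The causes of these moves were not tested. Scaling by the median of ratios moved the median of all genes to -0.01 and the positive share to 47.3%. Array quality weights gave 51.6%. TPM without depth limits what the sparse tRNAs can show.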
